A study of Mus musculus with 17 samples.

Results

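The 10 genes described here belong to the MHC class I antigen presentation route and were followed in mouse cells of 4 kinds: the heavy chain genes H2-K1 and H2-D1, the light chain gene B2m, the peptide transport and loading genes Tap1, Tap2 and Tapbp, the immunoproteasome subunit genes Psmb8, Psmb9 and Psmb10, and the class I transactivator gene Nlrc5. They were taken by gene symbol, 10 of the 16593 genes named on the array, and were read by 15 probes, of which 14 were detected on at least 1 array (detection p under 0.01) and tested. The exception was the third of 3 B2m probes, which was detected nowhere. Where a gene had several probes, the one with the highest mean level stands for it, and the other is given beside it where the values differ.

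Expression was measured from total RNA on 17 Illumina bead arrays, a single one for each condition. Embryonic stem cells (ESC) made up 1 condition. Cells with Oct4 under tetracycline control, labelled TO, were bone marrow cells (BMC), embryonic fibroblasts (MEF) and neural stem cells (NSC), each followed over 4 times (0, 6, 12 and 24 h). Untreated and 24 h treated wild-type cells were measured for MEF and NSC. BMC had no wild-type counterpart. The labels give no strain, age or inducing compound, call the 0 h arrays of the TO lines treated, and give a source field of 14 for the wild-type MEF array whose title says 24. The title of the series sets the question in the early stage of reprogramming by Oct4, and for the class I genes it becomes whether they move within 24 h and from what starting level.

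A class I molecule is a heavy chain paired with the light chain, beta-2 microglobulin, around a short peptide. The peptides are cut from cytosolic proteins by the proteasome, whose catalytic subunits are exchanged for Psmb8, Psmb9 and Psmb10 in the immunoproteasome. Tap1 and Tap2 form the pump that carries peptides into the endoplasmic reticulum, and Tapbp (tapasin) bridges that pump to the empty class I molecule. Nlrc5 switches on class I genes from a conserved promoter module, and interferons raise the whole route. Blood cells are known for high surface class I, and pluripotent and neural cells for low amounts.

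Promoter sequence from RefSeq (GRCm38.p6, 250 bases before to 50 after the start site) was held for 8 of the 10 genes, not for Tap2 and Nlrc5. It is shown for B2m and Psmb9, the genes that rose in MEF, and with Psmb9 for Tap1, since Tap1 and Psmb9 are read in opposite directions from start sites 226 bases apart and share one stretch of DNA. The 250 bases before the Tap1 start (chr17:34187306-34187555, plus strand) hold the Psmb9 start near their left end. The 250 bases before the B2m start (chr2:122147437-122147686, plus strand) hold both an interferon response letter pattern and a kappa B pattern. Capitals mark matches, on either strand, to GAAANNGAAA (interferon-stimulated response element core), TTCNNNGAA (STAT element), GGGANTTNCC (kappa B), TGACG (cyclic AMP element core) and CCAAT.
Tap1 and Psmb9: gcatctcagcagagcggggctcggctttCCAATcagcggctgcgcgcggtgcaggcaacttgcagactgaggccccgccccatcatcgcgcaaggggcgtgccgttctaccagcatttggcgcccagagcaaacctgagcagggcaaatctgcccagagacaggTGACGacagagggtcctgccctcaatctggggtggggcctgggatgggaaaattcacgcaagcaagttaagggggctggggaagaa
B2m: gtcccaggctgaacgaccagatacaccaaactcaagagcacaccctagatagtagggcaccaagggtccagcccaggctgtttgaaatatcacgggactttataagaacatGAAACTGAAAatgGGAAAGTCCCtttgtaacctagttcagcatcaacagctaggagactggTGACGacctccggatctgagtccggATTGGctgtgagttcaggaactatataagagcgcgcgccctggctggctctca

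In the B2m promoter the interferon pattern GAAACTGAAA lay at -139 to -130 from the start site, taken as base 0, and the kappa B pattern GGAAAGTCCC at -126 to -117. The first is found in 3.44% and the second in 1.2% of 32851 mouse promoters of the same length. B2m was the one gene of the 8 with either of these exact letter patterns. Other forms of the elements were not searched for, so their absence is not shown. The STAT letters TTCCCAGAA stood in the Psmb8 promoter at -97 to -89, and 8.3% of promoters hold that pattern. The single cores are common: TGACG is held by 20.8% of promoters and by 5 of the 8 genes, CCAAT by 37.4% and by 6.

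The heavy chains and the light chain share a longer arrangement, TGACG followed after 20 bases by ATTGG, which is CCAAT on the other strand and so overlaps both single patterns above. Elements of this kind are known as the X2 and Y boxes of the class I module that Nlrc5 acts through. The arrangement stood in H2-K1, H2-D1 and B2m, 3 of the 8 genes, and in 31 of the 32851 promoters (0.0944%), belonging to 27 genes, among them the class I heavy chain gene H2-M3. The spacing was noticed after these promoters had been read, so its share is a description. Each is shown with 15 bases on either side: H2-K1 at chr17:34000344-34000403, minus strand, H2-D1 at chr17:35262978-35263037, plus strand and B2m at chr2:122147594-122147653, plus strand, with the paired letters in capitals.
H2-K1: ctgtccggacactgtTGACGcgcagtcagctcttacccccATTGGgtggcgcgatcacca
H2-D1: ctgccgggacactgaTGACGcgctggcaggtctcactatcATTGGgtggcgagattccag
B2m: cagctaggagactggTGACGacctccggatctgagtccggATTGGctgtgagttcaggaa

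Of the 10 genes, 7 lie on chromosome 17 (H2-K1, H2-D1, Tap1, Tap2, Tapbp, Psmb8 and Psmb9), B2m lies on chromosome 2, and Psmb10 and Nlrc5 on chromosome 8 (GRCm38.p6). Tap1, Psmb8 and Tap2 follow one another there, at 34187556 to 34197225, 34198195 to 34201454 and 34204479 to 34216321, with Psmb9 at 34182030 to 34187330.

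Levels below are log2 intensities, corrected for background (offset 16) and quantile normalized across arrays. Each array detected 10231 to 11082 of 25697 probes, and the lowest detected level on an array was 5.38 to 5.69, so values near 5 are bounds. Before normalization the mean intensity was 382 to 437 on the 4 TO MEF arrays and 548 to 672 on the other 13. Pou5f1, the gene for Oct4, went from 8.44 at 0 h to 14.04, 14.35 and 14.50 in TO MEF, from 5.06 to 11.12, 11.11 and 10.88 in TO BMC, and from 5.08 to 10.28, 11.23 and 10.26 in TO NSC, and stood at 4.59 to 5.02 on wild-type arrays and 12.96 in ESC. All 8 embryonic stem cell markers were detected in ESC, 9 or 10 of 10 fibroblast markers on each MEF array, 8 of 9 neural stem cell markers on each NSC array and 10 of 11 leukocyte markers on each BMC array.

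All 10 genes were highest in bone marrow cells, and most were near or below background elsewhere. The 4 BMC arrays lay above the other 13 for 10 of 10 genes, against 14.9% of all probes. Only BMC arrays detected Nlrc5, so it was tested only because of them, and 5 others (H2-K1, H2-D1, Tap1, Psmb8 and Psmb9) were detected on 5 to 7 arrays in all, 4 of them BMC. B2m and Psmb10 were detected on all 17 arrays, Tap2 on 16 and Tapbp on 13.

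**Figure D1:**
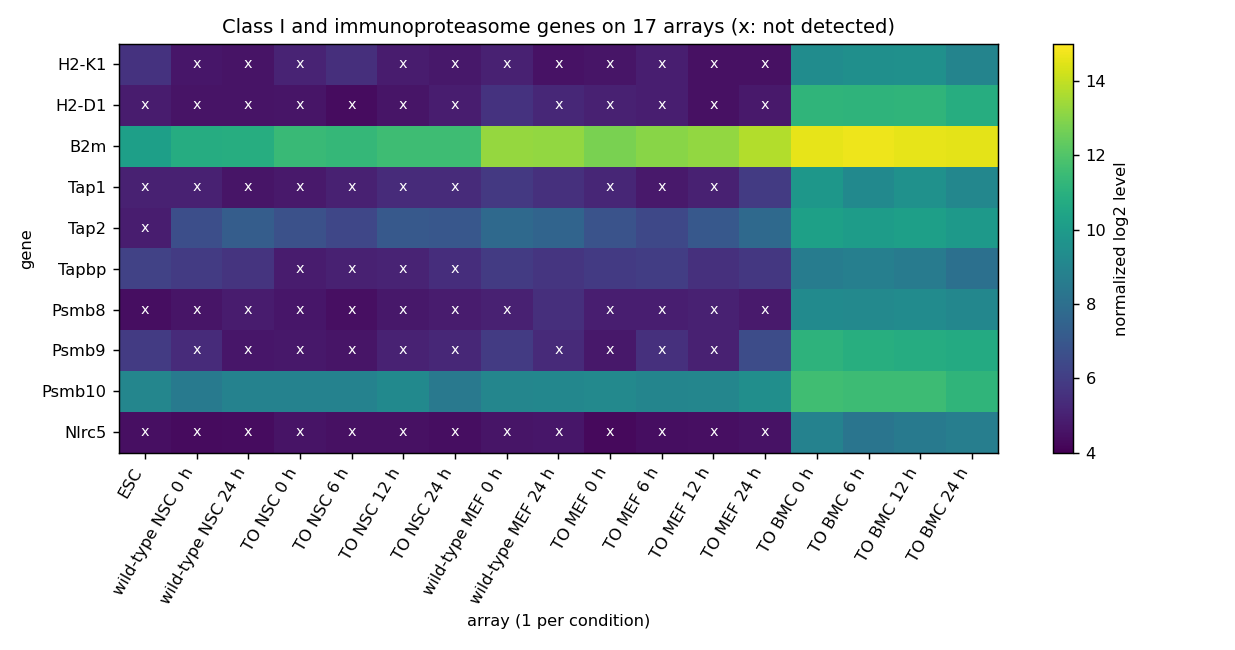
Normalized log2 level (colour) of the 10 genes (rows) on the 17 arrays (columns, 1 array per condition), with a cross where the probe was not detected. The 4 BMC columns are the brightest in every row, B2m runs from 10.19 in ESC to 14.72 in BMC, and Nlrc5 is marked as not detected on all 13 other arrays.

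H2-D1, a classical heavy chain that presents peptides to CD8 T cells, stood at 11.21, 11.17, 11.18 and 10.87 in BMC at 0, 6, 12 and 24 h, and from 4.38 to 5.62 on the other arrays, with wild-type MEF at 0 h highest of these. BMC at 0 h were 48.05-fold above that array and at least 54.8-fold above ESC. H2-K1, the second classical heavy chain, reached 9.36, 9.48, 9.52 and 8.97 in BMC and 4.47 to 5.61 elsewhere. Outside BMC it was detected in ESC (5.61) and in TO NSC at 6 h (5.50). BMC at 0 h were 13.4-fold above ESC by this probe, and at least 9.21-fold by the other H2-K1 probe, which only BMC arrays detected.

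B2m was detected in every cell type, and its level followed the cell type. BMC stood at 14.58, 14.72, 14.59 and 14.54, wild-type MEF at 13.25 and 13.20, TO MEF from 12.78 to 13.73, TO NSC from 11.32 to 11.59, wild-type NSC at 10.81 and 10.85, and ESC at 10.19. The order of the cell types was the same by both detected probes, and the MEF lines overlapped with each other while BMC, MEF, NSC and ESC did not. BMC at 0 h were 2.51-fold above wild-type MEF, 13.6-fold above wild-type NSC and 20.9-fold above ESC.

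Of the transport genes, Tap2 followed the same order. It was at 10.25, 10.07, 10.21 and 9.92 in BMC, 7.76 and 7.55 in wild-type MEF, 6.65 and 7.25 in wild-type NSC, and 4.88, not detected, in ESC. Neighbouring NSC and TO MEF values interleaved. Tap1 was detected in BMC (9.81, 9.23, 9.57 and 9.09), in wild-type MEF (5.81 and 5.52) and in TO MEF at 24 h (5.90) only. BMC at 0 h exceeded wild-type MEF 16.1-fold for Tap1 and 5.61-fold for Tap2. Tapbp was at 8.04 to 8.75 in BMC and 4.86 to 6.18 elsewhere, 6.54-fold above wild-type MEF at 0 h. It was not detected on any of the 4 TO NSC arrays, while both wild-type NSC arrays detected it at 5.92 and 5.67. The second Tapbp probe was detected on no NSC array of either line, with 4.67 and 4.66 in wild-type NSC.

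The immunoproteasome subunits differed among themselves. Psmb9 was at 11.10, 10.92, 10.80 and 10.72 in BMC, 36.8-fold above wild-type MEF at 0 h, where it was just detected at 5.90. Psmb8 was at 9.27, 9.20, 9.30 and 9.11 in BMC, at least 13.9-fold above the same MEF array. Psmb10 was at 11.62, 11.56, 11.54 and 11.20 in BMC, and its other arrays, 8.47 to 9.45, all detected it, so the fold over wild-type MEF was 5.87. The genes for the constitutive subunits they replace were not highest in BMC. At 0 h Psmb5 was 9.38 in BMC and 10.01 in wild-type MEF, Psmb6 12.62 and 12.28, and Psmb7 11.43 and 12.20. Psmb6, higher in BMC than in that MEF array, was highest in ESC (12.86). Nlrc5 reached 8.87, 8.27, 8.54 and 8.71 in BMC, which put BMC at 0 h at least 9.07-fold above TO MEF and at least 10.9-fold above ESC.

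Leukocyte markers were also highest on the BMC arrays, where their summed linear level was 93634 to 97328. It was 667 to 2899 on MEF arrays, 280 to 389 on NSC arrays and 9186 in ESC, where Laptm5 at 13.11 made up most of it. Outside BMC the sums did not follow the class I levels: ESC stood above every MEF array, while B2m and Tap2 were lowest in ESC. Class II genes, which are made by professional antigen-presenting cells, were likewise detected in BMC (7 to 10 of 11) and in no more than 3 of 11 elsewhere. In bulk RNA, fewer cells of a type and less RNA per cell cannot be told apart, and how far blood cell types set the BMC levels was not tested.

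The genes whose pattern over the 17 arrays was most like the mean of the 10 were Trim30a (Pearson r = 0.997), Cd14 (0.996), C1qa (0.996), Slc11a1 (0.995) and Arl11 (0.995). Cd14 and C1qa are macrophage genes. These values describe the one split between 4 BMC arrays and 13 others, which all these genes share.

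ESC did not form a common floor for the route. ESC lay below all 16 somatic arrays for 3 of 10 genes, B2m, Tap2 and Psmb8, against 14.0% of all probes. For Psmb8 the next array was also below background, so no difference in level can be read there. B2m in ESC was 8.32-fold below wild-type MEF, 2.36-fold below TO NSC at 0 h and 1.53-fold below wild-type NSC, with 7.95-fold, 2.47-fold and 1.50-fold by the other probe. Tap2 was at least 5.02-fold below wild-type MEF and at least 2.33-fold below wild-type NSC.

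The other genes gave a different picture in ESC. Tapbp (6.18) and H2-K1 (5.61) were higher in ESC than on any other array outside BMC, though the other probe of each gene was not detected in ESC (4.55 for H2-K1 and 4.80 for Tapbp). Psmb9 was detected at 5.90, as in wild-type MEF at 0 h (5.90). Psmb10 in ESC (9.07) stood in the middle of the MEF and NSC range. H2-D1, Tap1, Psmb8 and Nlrc5 were not detected in ESC, nor on most MEF and NSC arrays.

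In TO MEF, B2m and Psmb9 rose over the 24 h, and the other 8 genes did not pass the test. Changes were tested as a linear trend over 0, 6, 12 and 24 h, given as the fitted log2 change over 24 h, in one limma fit of the 16 somatic arrays with Benjamini-Hochberg adjustment over 15543 probes. The 2 of 10 that rose compare with 6.08% of all probes rising (10.9% called in either direction). The median fitted change of the 10 was 0.27, against -0.01 over all probes, and it was -0.053 without the 24 h array and 0.62 by the authors' log2 values. With 1 array per time, p-values measure scatter around the fitted values, pooled over the 5 TO and wild-type lines, not the spread between cultures. The wild-type lines had no slope, so their differences between 0 and 24 h count as scatter.

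B2m was at 12.78, 13.05, 13.22 and 13.73 in TO MEF at 0, 6, 12 and 24 h. Every later array was above the one before it, and the 24 h array was above both wild-type MEF arrays, 13.25 and 13.20. The fitted change was 0.94 ± 0.18 (SE, limma adjusted p = 0.0064), and 0.98 ± 0.20 (limma adjusted p = 0.00679) by the other detected probe. At 24 h the level was 1.93-fold that at 0 h. Before normalization the intensity also rose, from 5097 through 5754 and 7515 to 9256, but it ended below the 11564 and 10583 of the wild-type arrays, so the order of TO and wild-type MEF at 24 h depends on the scaling of the dimmer TO MEF arrays.

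Psmb9 stood at 4.71, 5.54, 5.0 and 6.56 in TO MEF. Only the 24 h array detected it, and the 6 h array fell just short of the limit. The fitted change was 1.64 ± 0.41 (limma adjusted p = 0.0225). Since the earlier arrays were below background, the 24 h level was at least 1.82-fold that at 0 h and at least 2.26-fold that of wild-type MEF at 24 h. In wild-type MEF it went the other way, from 5.90 to 5.31, where it was not detected, so the fall was at least 1.43-fold.

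Tap1 and Tap2 had positive values that missed the threshold. Tap2 was at 6.81, 6.39, 7.03 and 7.74, with a fitted change of 1.13 ± 0.36 (limma adjusted p = 0.0662), and at 24 h it stood level with wild-type MEF (7.55). Tap1 was at 5.18, 4.75, 5.0 and 5.90, detected at 24 h only, with 0.86 ± 0.35 (limma adjusted p = 0.141). Like B2m and Psmb9, both were highest at 24 h. The remaining fitted changes were 0.31 for Psmb10, 0.22 for Nlrc5, -0.11 for Psmb8, -0.19 for Tapbp, -0.26 for H2-K1 and -0.30 for H2-D1. The heavy chains, Psmb8 and Nlrc5 were not detected on any TO MEF array, so their values carry no direction, and the second H2-K1 probe gave 0.55.

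**Figure D2:**
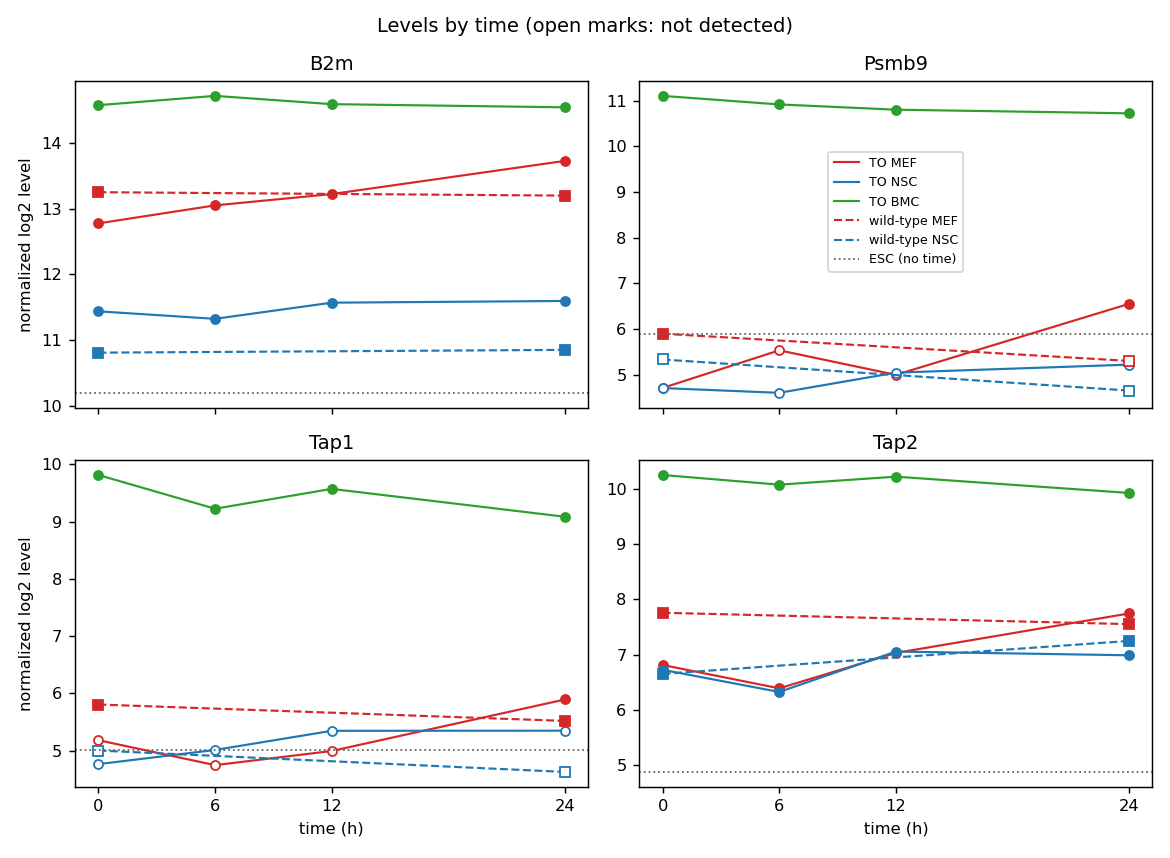
Normalized log2 level against time (h) for B2m, Psmb9, Tap1 and Tap2, 1 array per point, with TO lines solid, wild-type lines dashed, ESC dotted, and open marks where the probe was not detected. In TO MEF all 4 genes are highest at 24 h, B2m going from 12.78 to 13.73, while the wild-type MEF arrays start above TO MEF and end lower than they began.

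Both calls in TO MEF were lost when the first or the last array was left out, with the size of the B2m change nearly the same and that of Psmb9 smaller without the last. Without the 24 h array neither B2m (0.89, limma adjusted p = 0.335) nor Psmb9 (0.57, limma adjusted p = 0.874) passed. Without the 0 h array B2m (0.92, limma adjusted p = 0.0631) and Psmb9 (1.61, limma adjusted p = 0.138) did not pass, while Tap1 (1.57, limma adjusted p = 0.0383) and Tap2 (1.75, limma adjusted p = 0.0401) did. With the wild-type trend subtracted, B2m gave 0.99 (limma adjusted p = 0.152) and Psmb9 2.24 (limma adjusted p = 0.0771), and 0 genes passed (1.12% of all probes did). A step from 0 h to the mean of the later times, in limma, also called 0 (0.199% of all probes).

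At 0 h some of the genes were lower in TO MEF than in wild-type MEF, a comparison of 1 array with 1 array and so without a test. Tap2 was 1.92-fold lower and B2m 1.39-fold lower (1.24-fold by the other B2m probe). TO MEF at 0 h did not detect Psmb9, which was lower by at least 1.16-fold, or Tap1, for which that bound was 1.09-fold. Psmb9 alone was lower by 2-fold or more on the normalized values (4.66% of all probes). The probes of Tapbp and Psmb10 disagreed: Tapbp was 1.02-fold lower by one and at least 1.66-fold higher by the other, and Psmb10 stood at 9.19 against 9.06 by one and at 8.82 against 9.07 by the other. For the other 4 genes no difference could be read, since H2-K1, Psmb8 and Nlrc5 were detected on neither array and H2-D1 in wild-type MEF lay too near the detection limit. Pou5f1 was detected in TO MEF at 0 h (8.44) and not in wild-type MEF (5.02). Leukocyte markers were lower too: their summed level was 994 in TO MEF and 2899 in wild-type MEF at 0 h, and whether this bears on the difference was not tested.

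**Figure D3:**
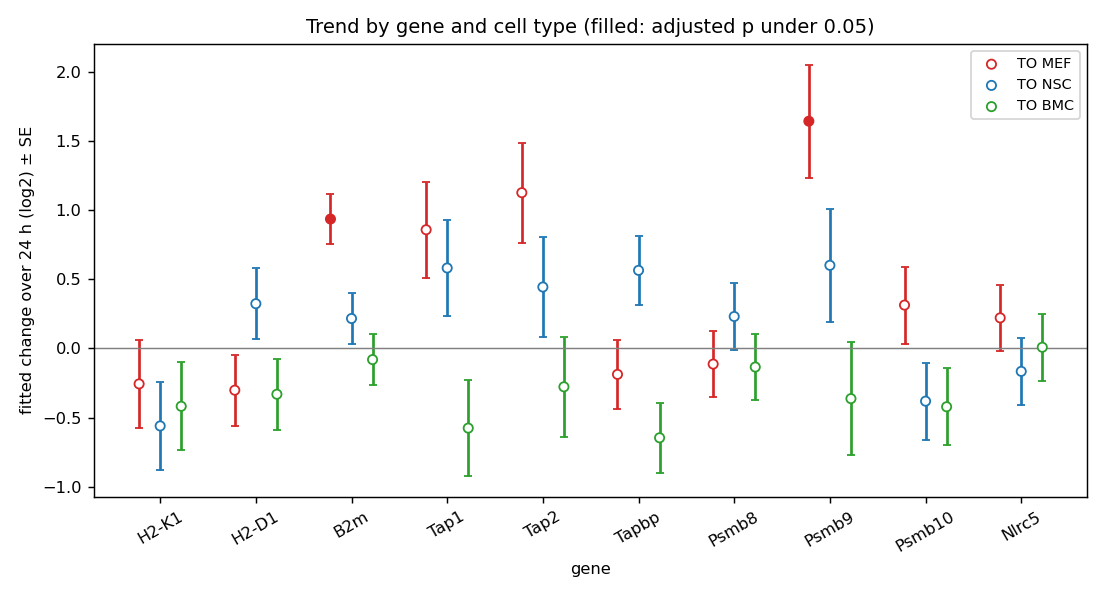
Fitted log2 change over 24 h (± SE from the limma fit of 16 arrays) of the 10 genes in TO MEF, TO NSC and TO BMC, filled where the adjusted p is under 0.05. B2m (0.94) and Psmb9 (1.64) in MEF are the filled points, and 9 of 10 BMC values lie below 0.

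Genes around the route in MEF were read from lists chosen with earlier results known. Of 14 other class I and class I-like heavy chain genes tested, 1 rose (6.08% of all probes rose) and 0 fell: H2-M3, which presents formylated peptides, by 1.16 ± 0.24 (limma adjusted p = 0.00741) from 7.02 to 8.13. Among 5 genes for the proteasome activator and proteasome assembly 0 passed and 2 had an unadjusted p under 0.05. The activator genes Psme1 and Psme2 gave 0.67 (limma adjusted p = 0.136) and 0.83 (limma adjusted p = 0.0531). The constitutive subunits gave 0.11 (Psmb5), 0.26 (Psmb6) and 0.01 (Psmb7), with 0 of 3 past an unadjusted p of 0.05. Of 10 genes for peptide trimming and loading, 0 rose and 1 fell (756 of 15543 probes fell), the peptidase gene Thop1, which fell by 1.02. With the wild-type trend subtracted neither H2-M3 (limma adjusted p = 0.223) nor Thop1 (limma adjusted p = 0.268) passed.

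Of 18 regulators of class I genes tested, 3 rose and 2 fell, where 6.08% of all probes rose and 756 of 15543 fell. Those that rose were Ifngr1, the interferon gamma receptor chain that binds the ligand, by 2.53 ± 0.37, Irf9 by 1.77 ± 0.28 and Stat2 by 1.45 ± 0.41, the last pair being partners in the factor that carries type I interferon signals. Those that fell were the type I interferon receptor gene Ifnar2 (-1.52) and the CCAAT-binding subunit gene Nfya (-0.96). Irf1, an activator of Tap1 and Psmb9, gave -0.97 ± 0.39 (limma adjusted p = 0.14). Of 8 interferon-responsive reference genes 5 rose: Usp18 (4.66), Igtp (4.01), Ifit3 (3.98), Isg15 (3.92) and Gbp3 (2.22). Of the 5 called regulators 1 passed with the wild-type trend subtracted, Ifngr1 (limma adjusted p = 0.0477), as did 3 of the 5 reference genes, Usp18, Igtp and Ifit3. The interferon genes Ifnb1 and Ifng were detected on no array. Of 10 class II genes 0 passed, also at an unadjusted p under 0.05.

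**Figure D4:**
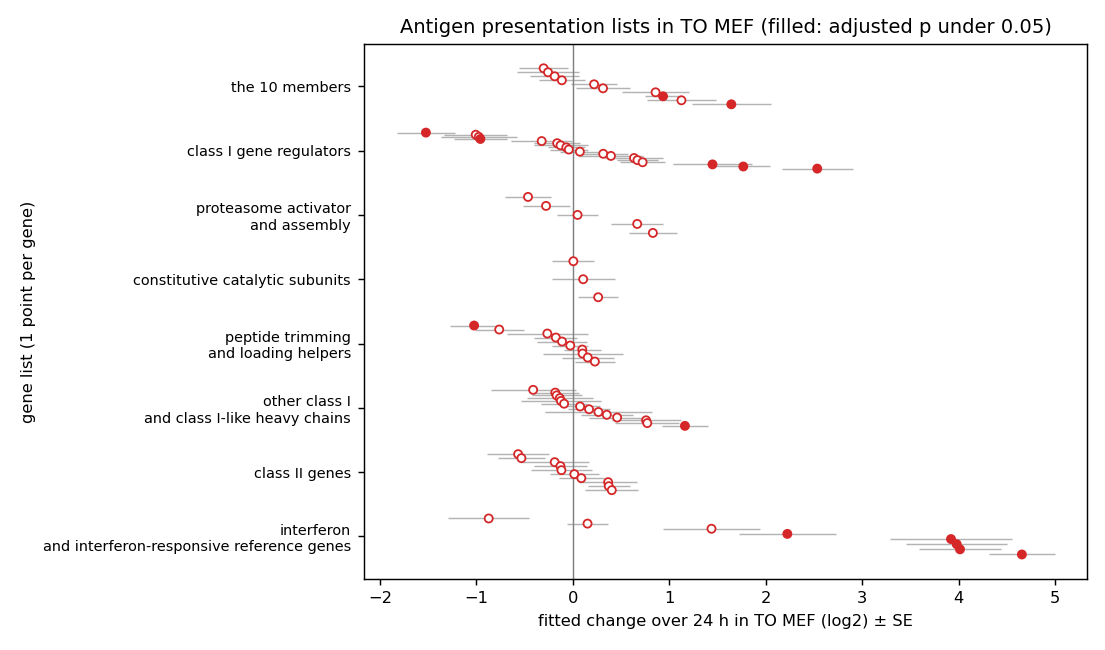
Fitted log2 change over 24 h in TO MEF (± SE from the limma fit), 1 point per tested gene, by list, filled where the adjusted p is under 0.05. Of the 10 class I route genes 2 are filled, against 5 of 8 interferon-responsive reference genes, which reach 4.66, and 0 of 10 class II genes.

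Leukocyte markers were also read in TO MEF. Of 11 tested 0 rose and 3 fell (Laptm5, Fcer1g and Cd3e), where 6.08% of all probes rose and 756 of 15543 fell. With the wild-type trend subtracted 0 of these 3 passed. Of the 11 markers 5 were detected at 0 h and 2 at 24 h, and their summed level was 994, 1084, 1094 and 667 at the 4 times. Ptprc was detected on none of the MEF arrays, though each wild-type MEF array detected 7 of the 11 markers. Whether the marker levels bear on the B2m and Psmb9 values was not tested.

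In TO NSC 0 of 10 genes passed the test, where 23.2% of all probes did. Tapbp alone had an unadjusted p under 0.05, and the median fitted change was 0.28 against 0.01 over all probes (0.60 by the authors' log2 values). B2m stayed between 11.32 and 11.59 (0.22 ± 0.18, limma adjusted p = 0.468), above wild-type NSC at both times, 1.55-fold at 0 h and 1.68-fold at 24 h. At 0 h Tapbp alone of the 10 genes differed from wild-type NSC by 2-fold or more on the normalized values, where 9.17% of all probes did. It was at least 1.29-fold lower, given that TO NSC did not detect it. The second Tapbp probe was detected on neither array, so no difference could be read from it. Tap2 was at 6.73, 6.33, 7.06 and 6.99. H2-D1, Tap1, Tapbp, Psmb8, Psmb9 and Nlrc5 were not detected on any TO NSC array, so a rise to a level under the limit could not be seen.

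Class I-like genes outside the 10 did rise in TO NSC: Fcgrt, the neonatal Fc receptor, by 2.21 ± 0.41 (limma adjusted p = 0.00253), H2-T23, the Qa-1 chain, by 1.92 ± 0.56 (limma adjusted p = 0.0254) and the lipid-presenting Cd1d1 by 1.34 ± 0.33 (limma adjusted p = 0.0117), 3 of 14 tested with 0 falling. With the wild-type trend subtracted Fcgrt and H2-T23 passed and Cd1d1 did not. Psme1 rose by 0.88, and the assembly genes Psmg1 (-1.36) and Psmg2 (-0.75) fell, while Psme2 gave -0.02. Psmb5 (-0.61), Psmb6 (-0.52) and Psmb7 (-0.62) did not pass. Among the regulators Jak2 alone rose (0.75) and Irf1 gave -0.84 (limma adjusted p = 0.152). Of the interferon-responsive reference genes 0 rose and 2 fell, Gbp3 (-3.00) and Irgm1 (-0.69). With the wild-type trend subtracted Psme1, Psmg1, Psmg2, Jak2 and Irgm1 did not pass, and Gbp3 did.

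In TO BMC 0 of 10 genes passed, where 0.785% of all probes did, and Tapbp alone had an unadjusted p under 0.05. The median fitted change was -0.35 against 0.01 over all probes, and at 24 h all 10 genes were lower than at 0 h, against 48.2% of all probes. The sizes were small. B2m differed by 1.02-fold, Nlrc5 and Psmb8 by 1.11-fold and 1.12-fold, H2-D1 by 1.26-fold, Tapbp by 1.49-fold and Tap1 by 1.66-fold, and the second Tapbp probe was higher at 24 h (1.16-fold). Without the 24 h array the median was -0.07.

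Bone marrow markers fell on the BMC arrays over the same hours. All 9 tested passed the test, with a median of -3.11, the granule genes Mpo and Elane giving -6.73 and -5.01. Their summed level went from 50565 to 8942. Leukocyte markers as a whole held their summed level (96941 and 93634), and of 11 tested the B cell gene Cd79a fell (-1.46). Class II genes had a median of -0.53, with 0 of 10 passing and 5 at an unadjusted p under 0.05. How far these shifts bear on the class I values was not tested.

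Set against each other, the trends of the 3 cell types differed for 1 gene of 10. The Tapbp trend in NSC exceeded that in BMC by 1.21 ± 0.36 (limma adjusted p = 0.0474), where 10.6% of all probes differed, with fitted changes of 0.57 in NSC and -0.65 in BMC. All TO NSC values of Tapbp were below background, and its second probe gave 0.06. The call was lost in 14 of the 16 fits with an array left out, where the difference ran from 0.65 (without TO BMC 24 h) to 1.53 and the limma adjusted p from 0.0382 to 0.775. Between MEF and BMC 0 of 10 genes differed (3.44% of all probes did; 4 genes at an unadjusted p under 0.05), and between MEF and NSC 0 (5.83% of all probes had the higher trend in MEF and 5.13% the lower; 1 gene at an unadjusted p under 0.05). B2m in MEF exceeded BMC by 1.02 ± 0.26 (limma adjusted p = 0.0541) and NSC by 0.72 ± 0.26 (limma adjusted p = 0.0986). Psmb9 in MEF exceeded BMC by 2.01 ± 0.58 (limma adjusted p = 0.0886) and NSC by 1.04 ± 0.58 (limma adjusted p = 0.289). The B2m and Psmb9 rise in MEF was therefore not shown to differ from the course in the other cells.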

How the data were processed

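For each probe and array the authors deposited a linear, unnormalized intensity and a detection p-value. They also deposited log2 values in the series matrix. The submitters' processing notes name BeadStudio 3.2, lumi and RMA without their order or settings, and the genome build is not given in the sources used here. From the values, the authors' log2 columns share one median (3.77) and keep the rank order of the intensities, so they were read as normalized between arrays.

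Log2 levels were made in R 4.3.3 (limma 3.58.1). The deposited intensities were background-corrected by normexp, which took the negative controls' mean and SD from the detection p-values, with 16 added, and the 17 arrays were then quantile normalized. A probe was kept if any array detected it at p under 0.01 (15543 of 25697 probes). Symbols came from the platform annotation (23978 probes with 1 symbol, 1719 with none). On a dim side that was not detected, a fold is a lower bound, taken against the lowest detected level of that array or the probe's own level if higher. The number of arrays limits the precision.

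Times were taken from the titles. The 16 somatic arrays were fitted with an intercept for each of 5 lines and a linear time slope per TO cell type (8 residual and 4.61 prior degrees of freedom), and adjusted p-values under 0.05 were called. The fit was tested on simulated data. Alternatives were a step, the wild-type trend subtracted, wild-type arrays left out, no background correction, an offset of 50, median scaling, the authors' log2 values, other filters, other probes, and each array left out. All 10 genes were named, by the probe of highest mean. From the other lists at most 5 called genes were named, largest first, with Irf1, Psme1, Psme2, Psmb5, Psmb6 and Psmb7 always, and the 5 genes most alike in pattern. One gene of that rule is not reported here. Marker and reference lists were described by counts and summed levels, and markers were named as examples. The genes and lists were chosen with earlier results of these data known.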

Additional observations from a re-analysis of the deposited data

Results flagged for a closer look

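The Tapbp trend differed between cell types: the fitted log2 change over 24 h was 0.57 in TO NSC and -0.65 in TO BMC, a difference of 1.21 ± 0.36 (SE, limma adjusted p = 0.0474) by the test of the difference itself. Levels were 4.86, 5.03, 5.11 and 5.44 in TO NSC, none of them detected, and 8.62, 8.75, 8.58 and 8.04 in TO BMC, all detected. With an array left out the call held in 2 of 16 fits (limma adjusted p from 0.0382 to 0.775), and it was lost by the step (0.50, limma adjusted p = 0.999), without the wild-type arrays (limma adjusted p = 0.0725), by the authors' log2 values (limma adjusted p = 0.0507) and without a filter on dim probes (limma adjusted p = 0.0532). The second Tapbp probe gave 0.06 ± 0.73 (limma adjusted p = 0.976).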

How the results depend on the processing

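B2m and Psmb9 kept a positive change in MEF under each alternative run, B2m from 0.56 to 0.99 and Psmb9 from 0.57 to 2.66. The number of the 10 genes rising in MEF was 2, but 0 by the step, 0 with the wild-type trend subtracted, 1 by the authors' log2 values (B2m, with Psmb9 at 2.66 and limma adjusted p = 0.0694), and 0 (without TO MEF 24 h) to 3 with an array left out. All probes called in MEF numbered 1701 by the trend, 31 by the step, 174 with the wild-type trend subtracted, 1065 by the authors' values, 849 without TO MEF 0 h and 394 without TO MEF 24 h. All probes called in NSC numbered 3610, 32 by the step, 1281 with the wild-type trend subtracted and 549 without TO NSC 24 h. In BMC they numbered 122, 5 by the step, 54 by the authors' values, 73 without TO BMC 0 h and 23 without TO BMC 24 h. By the authors' values 1 gene rose in NSC (Tapbp, 1.11, limma adjusted p = 0.0423) where 0 did otherwise. Calls of a trend difference were summed over the pairs of cell types, so a gene can count more than once. They numbered 1, 0 by the step, without wild-type arrays and by the authors' values, 4 with no background correction and with an offset of 50, 2 with detection on 3 arrays, and 0 to 2 with an array left out. The median change of the 10 genes ran from 0.019 to 0.62 in MEF and from 0.023 to 0.60 in NSC under the other alternatives, and from -0.053 to 0.38 and from 0.19 to 0.42 with an array left out. Differences of 2-fold or more between TO and wild-type at 0 h, with the MEF and NSC counts added, numbered 2, 0 with no background correction or an offset of 50, and 8 by the authors' values. The cause of these shifts was not tested.

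Reversals concerned changes that had not passed the test. By the step these were B2m (0.041) and Nlrc5 (-0.36) in BMC, H2-D1 (-0.013) and Psmb8 (-0.019) in NSC, and H2-K1 (0.0092) and Psmb10 (-0.028) in MEF. With the wild-type trend subtracted they were H2-D1 (0.071), H2-K1 (0.24) and Tapbp (0.043) in MEF and Tap2 in NSC (-0.15). By the other probe they were H2-K1 (0.55) and Tapbp (0.31) in MEF and Tapbp in BMC (0.0076). With an array left out the ranges that crossed 0 were, in BMC, -0.21 to 0.031 for B2m, -0.74 to 0.33 for H2-K1, -0.65 to 0.56 for Nlrc5 and -0.16 to 0.056 for Psmb8; in MEF, -0.29 to 0.63 for Psmb10, -0.19 to 0.15 for Psmb8 and -0.38 to 1.57 for Tap1; in NSC, -0.029 to 0.63 for H2-D1 and -0.66 to 0.64 for Psmb10.

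No paired analysis was possible because each condition has 1 array. Slide as a block was not run, since the headers give no slide. Detection limits H2-K1, H2-D1, Psmb8 and Nlrc5 outside BMC: changes below the lowest detected level of an array (5.38 to 5.69) could not be seen.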

Other observations

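Class I-like genes outside the classical route separated the cell types in other ways. Cd1d1 was highest in neural stem cells, 9.63 in TO NSC at 0 h against 7.36 in wild-type MEF, 6.50 in BMC and 6.13 in ESC on the normalized log2 scale. H2-M3 was at 10.99 in BMC, 7.02 in TO MEF and 6.54 in ESC at 0 h, and was not detected in TO NSC (4.75). In ESC the class II gene H2-Eb1 was at 8.26, against 10.98 in BMC, while another class II gene, H2-Aa, was not detected in ESC (4.52). These genes were picked out after their values were seen.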
